A study of Mus musculus with 6 samples.

Results

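The control myotubes of this series were 3 cultures of C2C12 cells, a mouse myoblast line that fuses into multinucleated myotubes when serum is withdrawn. They are the 3 of 6 libraries whose labels give the control siRNA named GL2, an oligonucleotide directed against firefly luciferase, a gene that mouse cells do not carry. All 3 received 100 pmol of siRNA for 3 days in DMEM with 2% horse serum, and the labels call them biological replicates 1, 2 and 3, here cultures 1, 2 and 3. Polyadenylated RNA was made into directional libraries and sequenced in paired reads in a common run. The libraries describe 1 established line after transfection, and no untransfected culture is analysed here. They hold bulk RNA, so that fewer cells of a type and less RNA per cell cannot be told apart.

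Myogenic differentiation begins when myoblasts expressing Myf5 and Myod1 leave the cell cycle and switch on Myog, the transcription factor that drives terminal muscle genes. The cells then fuse, assemble sarcomeres of myosin, actin and their regulators, and install the calcium release apparatus that couples excitation to contraction. Most sarcomeric proteins are encoded by several paralogs, and developing muscle uses embryonic, cardiac and slow forms that mature fast fibres lose.

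The deposited values gave back 27672491, 25223218 and 27763538 reads in cultures 1, 2 and 3, and 21288, 21104 and 21660 genes with at least 1 read. Levels are given in 2 ways. The normalised read count scales each library by the authors' factor, and TPM, the per-length transcript level, divides that count by the deposited gene length and scales each library to a sum of 1000000. Levels of different genes are compared in TPM, except where ranks by read count are named as such. The order of the cultures at a gene can depend on the scale. Acta1, for example, was highest in culture 3 in TPM (10545, 11353 and 11584) and lowest there in normalised reads (133714, 140021 and 131880). Ratios between cultures use normalised reads. Every error is the standard deviation (SD) over the 3 cultures. Culture 3 stood apart: it was the library farthest from the other pair for 47.6% of 13122 tested genes, against 33.2% for culture 1 and 19.3% for culture 2. A difference of more than 2-fold separated cultures 1 and 2 at 33 genes, cultures 1 and 3 at 272 genes and cultures 2 and 3 at 217 genes.

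The myotubes expressed 13307 genes at 1 TPM or more in each of the 3 cultures. Of these, 11540 were protein-coding and held 94.2% of all TPM, 602 were processed pseudogenes with 1.85%, and 261 were long intergenic noncoding RNAs with 1.9%. Skeletal muscle fibre markers were all present: the 8 genes of that set (Mylpf, Acta1, Tnnc2, Myh3, Myog, Atp2a1, Ckm and Ttn) summed to 34669, 36302 and 34153 TPM. Muscle precursor markers were lower, at 615.4, 601.4 and 655.0 TPM, most of it from the adhesion molecule Cdh15 (479 ± 26.7 TPM, n = 3). The satellite cell factor Pax7 was at 10.8, 11.1 and 12.8 TPM. Pax3, its paralog of embryonic precursors, had 2 reads in culture 1 and none in the others.

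Of the markers of other cell types, those listed for smooth muscle were the highest set, at 8217, 7825 and 6874 TPM, nearly all from Des and Acta2, which developing skeletal muscle also expresses. Their defining heavy chain Myh11 was at 0.0684 ± 0.0162 TPM. The heart set summed to 26.0, 26.6 and 42.1 TPM, led by Myh6, and its Myl7 had no read. The sets of several unrelated cell types were near 0. Fat cell markers summed to between 0.0309 and 0.166 TPM, endothelial markers to between 0.272 and 0.421 TPM, and red blood cell markers to between 0.323 and 0.683 TPM. Of 5 liver genes, 4 had no read in any culture, and a count of 0 still allows up to 3 reads per library. Other sets were higher. Epithelial markers summed to 50.4, 43.4 and 51.3 TPM, with 2 of 5 expressed. Bone-forming cell markers summed to 6.05, 4.62 and 5.71 TPM, and macrophage and blood leukocyte markers to 4.01, 5.83 and 5.53 TPM. Some single markers were well above 0. Sox9, a transcription factor of cartilage, was at 41.5, 39.0 and 35.3 TPM while Col2a1 and Acan, the cartilage matrix genes, stayed below 0.05 TPM. The neuronal tubulin Tubb3 was at 127, 120 and 93.6 TPM while Snap25, Syt1 and Rbfox3 had no read. Erbb3, a neuregulin receptor listed here for Schwann cells, was at 104.5, 123.7 and 125.9 TPM, and Sox10 had 1 read in 1 culture. The fibroblast set summed to 1164, 1127 and 1160 TPM, with 4 of its 6 genes expressed. It was led by the fibrillar collagen Col3a1 (1121 ± 18.2 TPM), with Pdgfra at 3.58 ± 0.944 TPM and Tcf21 without a read. Dcn, another gene of the set, is given with the matrix genes below. The dividing cell set (Top2a, Mki67, Cdk1, Birc5 and Ccnb1) summed to 107, 103 and 149 TPM.

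The mRNA pool was led by mitochondrial transcripts, the noncoding RNA H19 and fast muscle genes. The cytochrome oxidase subunit mt-Co1 (chromosome M, 5328 to 6872) was highest at 21633, 22511 and 21945 TPM, and mt-Cytb followed at 14518, 14389 and 14179 TPM. In TPM these values barely moved between cultures. In normalised reads culture 3 was the lowest for both, with mt-Co1 at 275912, 279247 and 251311 and mt-Cytb at 137106, 132166 and 120226. H19, an imprinted long noncoding RNA of embryonic muscle on chromosome 7 (142575529 to 142578143), was at 14388, 15656 and 11355 TPM, lowest in culture 3. Mylpf, the fast regulatory myosin light chain, was at 11856, 12133 and 9718 TPM, and Acta1, skeletal alpha-actin, at 10545, 11353 and 11584 TPM. Their order changed between cultures, with Mylpf above Acta1 in cultures 1 and 2 and below it in culture 3.

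Of the 30 highest genes, 9 others encode proteins of the contractile apparatus or its cytoskeleton: Tnnc1, Tnnc2, Des, Myh3, Acta2, Tnnt3, Tpm2, Mybph and Myl1. The actin-sequestering Tmsb10, which many cell types express, was at 5370, 5175 and 3649 TPM. Translation was represented by the elongation factors Eef1a1 (8224 ± 292 TPM) and Eef2 (4338 ± 200 TPM) and by the ribosomal proteins Rplp1 (4325 ± 460 TPM) and Rps15 (3275 ± 259 TPM). The galactose-binding lectin Lgals1 reached 7749 ± 523 TPM. Secreted matrix proteins in the same range were Sparc (3202 ± 272 TPM) and fibronectin, Fn1 (2965 ± 265 TPM). The chaperone Hsp90ab1 was at 3612, 3613 and 3481 TPM, and Tpt1, a growth-related cytosolic protein, at 2789, 2681 and 2430 TPM.

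**Figure D1:**
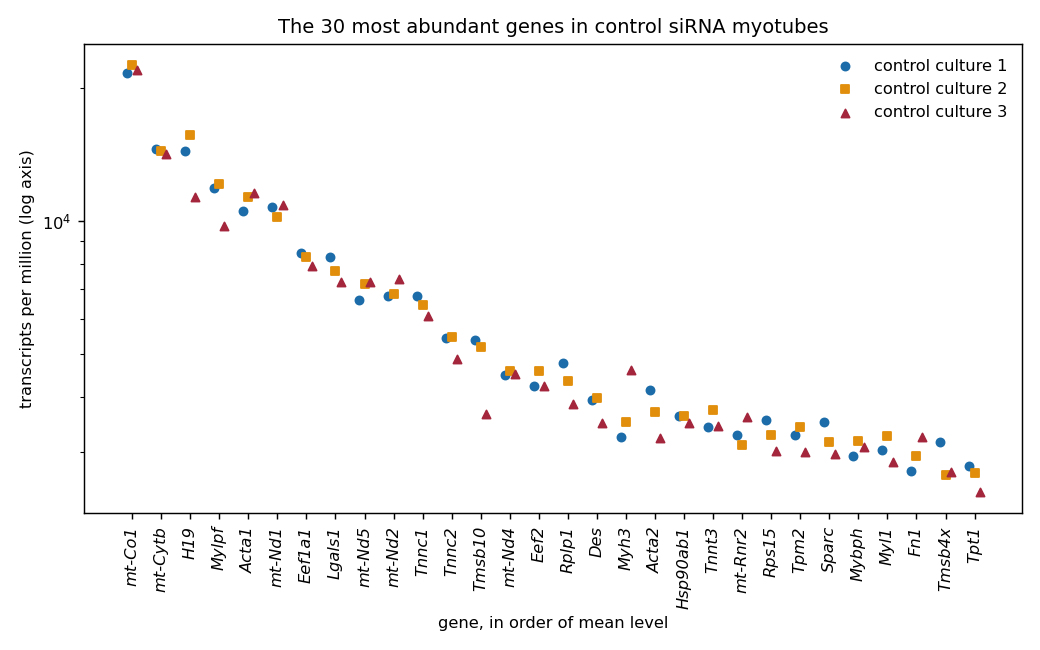
Level of the 30 most abundant genes, in TPM on a log axis, in each of the 3 control siRNA cultures (one symbol per culture). mt-Co1 lies highest, between 21633 and 22511, and the triangle of culture 3 lies below the other pair at H19, Mylpf and Tmsb10 and above it at Myh3 and Fn1.

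Few genes held much of the pool. The 10 highest genes made up 11.4%, 11.6% and 10.9% of all TPM in cultures 1, 2 and 3, the 100 highest 29.6 ± 1.13% and the 1000 highest 61.5 ± 1.57% (SD, n = 3). It took 447, 467 and 551 genes to reach 50% of TPM, so culture 3 had the flattest distribution. On read counts without the length, the same share took 820, 826 and 891 genes. The 13 mitochondrial mRNAs made up 6.59 ± 0.0655% of TPM, nearly all of it from 6 genes at 4518 TPM or more and mt-Nd6 at 345 ± 70.4 TPM. The other 6 were far lower in this table. They ran from mt-Co2 at 17.85, 16.81 and 19.95 TPM down to mt-Nd3 at 0.702, 0.796 and 0.754 TPM. Of the 13, 10 had a mean of at least 20 reads. Why the 6 were so low was not tested, so the mitochondrial share holds only for the counts as deposited. As shares of TPM, ribosomal protein mRNAs made up 6.38 ± 0.591% and thick and thin filament mRNAs 6.54 ± 0.249%.

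**Figure D2:**
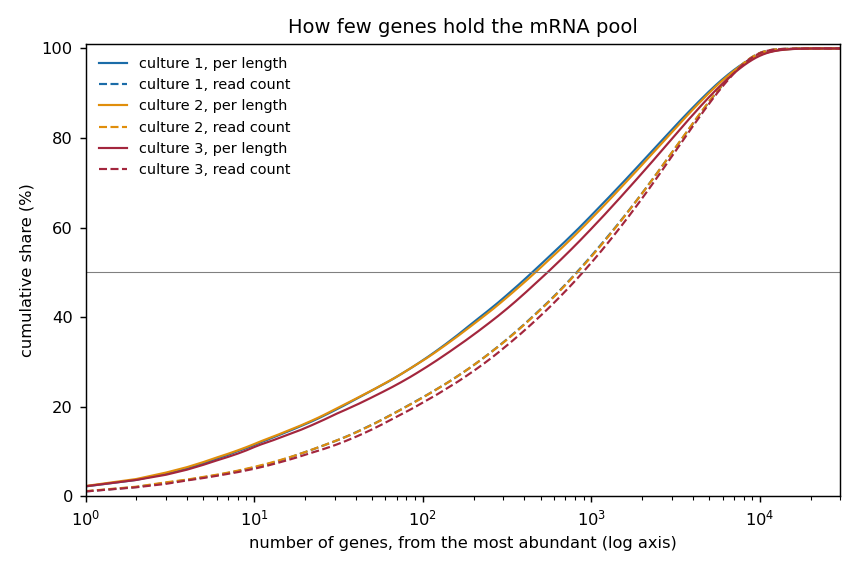
Cumulative share of the pool (vertical axis, percent) against the number of genes counted from the most abundant (horizontal log axis), for each culture per length (solid) and on read counts (dashed). The solid curves cross the grey line at 50% at 447, 467 and 551 genes, and the dashed curves at 820, 826 and 891.

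Dividing by length reordered the giant genes and the very short ones. Fn1, with 11685 exonic bases, was first by read count (261843, 275680 and 280793 normalised reads) and ranked 28 by TPM. Titin, Ttn, the molecular spring of the sarcomere on chromosome 2 (76703980 to 76982547), ranked 20 by read count and 1980 by TPM. Its count of 63883, 82109 and 102732 normalised reads was spread over 117334 exonic bases, which gave 66.0, 87.2 and 118 TPM. Plec, a giant cytolinker, ranked 39 by read count and 407 by TPM, and nonmuscle myosin Myh9 ranked 27 and 207. In the other direction, Rplp1 (499 bases) ranked 184 by read count and 16 by TPM, and troponin C gene Tnnc2 (800 bases) ranked 71 and 12.

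Paralog use was examined in 91 gene families with 367 members. In 84 families the highest member stayed above the second in a strict sense, its lowest culture above the highest culture of the runner-up, and in 71 it held more than 50% of the family's TPM. The length that divides the counts matters here, because the deposited length covers all exons of a gene and long alternative exons lower its TPM. With read counts, with the longest coding length or with the principal transcript length instead, 71 of the 91 families kept their highest member under all 3 scales and 20 did not. Reads can also be shared by near-identical paralogs: 344 of the 367 genes shared no 75-base exonic window with a family member, and 14 shared more than 5% of theirs, among them Myh1, Myh2, Myh4, Myh8, Myh6 and Myh7, the alpha tubulins Tuba1a, Tuba1b and Tuba1c, and Hspa1a with Hspa1b. Values for these genes are uncertain on this account. Copies outside a family, such as processed pseudogenes, were not compared, so the windows do not bound the uncertainty of any gene.

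In the thick filament, embryonic myosin Myh3 was the leading motor at 3241, 3509 and 4595 TPM, or 57.7 ± 4.28% of sarcomeric myosin heavy chain. The fast adult isoform Myh1 was second at 1998, 2216 and 1961 TPM (31.9 ± 4.47%). These ranges did not overlap, and culture 3 had both the highest Myh3 and the lowest Myh1. Adult fast Myh4 followed at 262, 321 and 225 TPM, perinatal Myh8 at 108.6, 122.7 and 184 TPM, and slow Myh7 at 89.2, 99.6 and 199 TPM. The ranges of Myh8 and Myh7 overlapped. The order of Myh4 and Myh8 depended on the deposited length, 6016 bases for Myh4 and 11772 for Myh8. In normalised reads Myh4 was at 13019, 15495 and 10015 and Myh8 at 10553, 11601 and 16080, so that their ranges overlapped. Myh2, the adult intermediate fast isoform, was at 67.2 ± 8.66 TPM and cardiac Myh6 at 23.2 ± 10.3 TPM. Myh13 and Myh15, extraocular and related forms, had at most 15 reads in a culture.

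Among regulatory light chains Mylpf held 93.8 ± 0.323%, and no other member reached 5%. The cardiac and slow form Myl2 was at 8.39, 9.66 and 41.1 TPM, so that culture 3 stood far above the others. Essential light chains were divided between the fast Myl1 (3040 ± 205 TPM) and the embryonic and atrial Myl4 (1814 ± 212 TPM). Myl1 held 50.2% on the deposited length, but 35.3% on read counts, 35.1% on coding length and 37.4% on principal transcript length, where Myl4 was the higher gene. Myosin-binding protein H, Mybph, held 92.9 ± 0.447% of its family, and Mybpc1, the slow binding protein C, followed at 178 ± 21.2 TPM.

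Thin filament actin came mainly from the skeletal gene Acta1 (52.7 ± 4.19%), at 11161 ± 545 TPM. The smooth muscle gene Acta2 was at 4131, 3688 and 3230 TPM, cardiac Actc1 at 2658, 2835 and 2223 TPM, and cytoplasmic Actb at 2856, 2672 and 2176 TPM. Actc1 and Actb could not be ordered, since their ranges overlapped. The coding sequences of Acta1 and Actc1 both run to 1134 bases and differ at 157 of them, an identity of 86.2%, and the longest identical stretch is 29 bases. Acta1 and Acta2 differ at 166 bases (85.4%). Neither pair shares a coding stretch as long as a read of 75 bases. Over all exons, Acta1 shares 3 windows of 75 bases with Actb (0.197% of its windows) and none with the other actins. The first 180 coding bases are shown, 5′ to 3′ from the start codon, because they display how Acta1 and Actc1 differ. Capitals mark the 24 positions where the genes differ, in GENCODE M21 transcripts.
Acta1: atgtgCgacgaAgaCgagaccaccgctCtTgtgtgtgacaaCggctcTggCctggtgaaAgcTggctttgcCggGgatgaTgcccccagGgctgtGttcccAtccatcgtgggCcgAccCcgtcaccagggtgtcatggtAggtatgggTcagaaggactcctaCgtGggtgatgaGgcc
Actc1: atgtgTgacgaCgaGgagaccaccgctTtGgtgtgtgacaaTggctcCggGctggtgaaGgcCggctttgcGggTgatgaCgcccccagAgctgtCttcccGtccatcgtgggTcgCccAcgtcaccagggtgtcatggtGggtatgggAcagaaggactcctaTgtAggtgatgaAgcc

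The troponin complex, which confers calcium sensitivity, mixed slow and fast paralogs. Slow and cardiac Tnnc1 was at 6742, 6458 and 6091 TPM and fast Tnnc2 at 5419, 5456 and 4870 TPM, so that the calcium-binding subunit was 55.1 ± 0.754% of the slow form. Troponin I was evenly divided, with fast Tnni2 at 1650, 1619 and 1386 TPM and slow Tnni1 at 1492, 1530 and 1503 TPM, and the ranges overlapped. On read counts Tnni1 held 70% and on coding length 70.4%. For troponin T, fast Tnnt3 held 61.5 ± 0.661%, with slow Tnnt1 at 1166, 1199 and 1159 TPM and cardiac Tnnt2 at 1040, 1111 and 941 TPM on the deposited length. That order depended on the length too, since Tnnt2 led with 49.4% on read counts, 46.5% on coding length and 45.2% on principal transcript length. Tropomyosin came mainly from Tpm2 (65.7 ± 1.25%), followed by Tpm1 (993, 969 and 837 TPM).

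**Figure D3:**
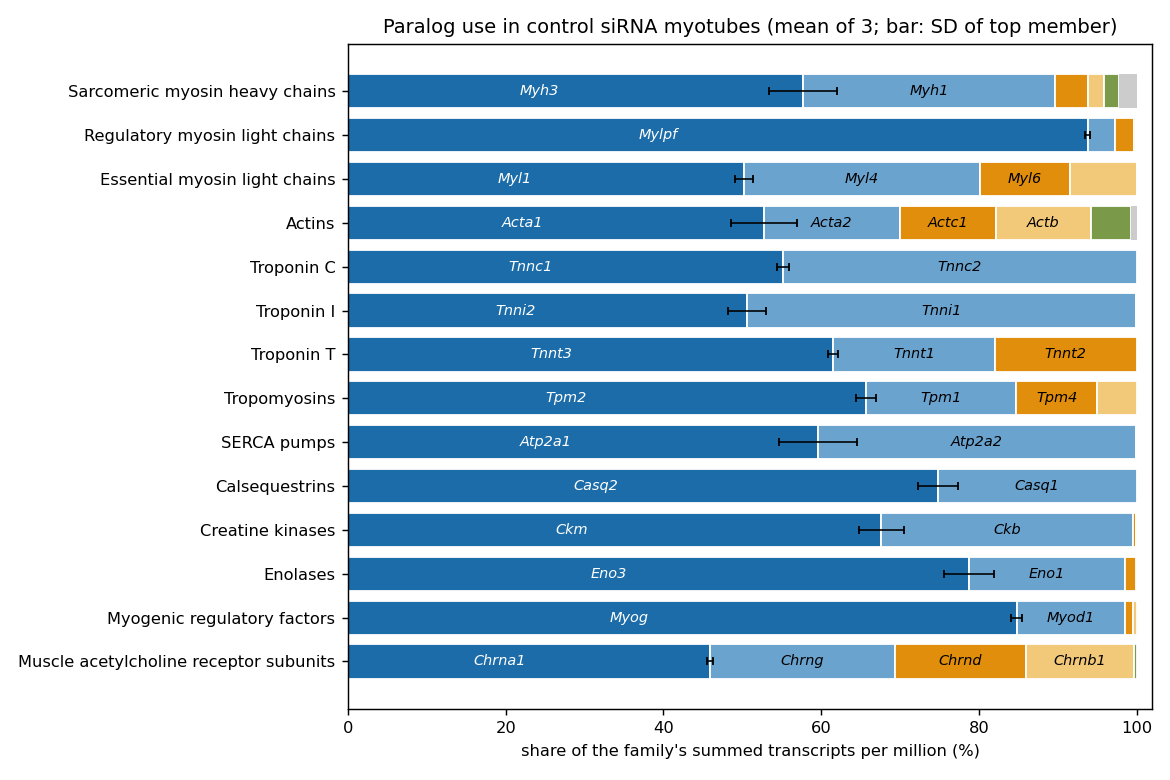
Share of each family's summed TPM held by its members (stacked bars, mean of 3 control cultures, largest member first; the black line is the SD of the largest member's share). Mylpf takes 93.8% of its family and Myog 84.8%, while Tnni2 and Tnni1 divide troponin I at 50.6% and 49.3%; essential light chains, troponin I, troponin T and SERCA pumps have another leading member on other length scales.

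At the Z-disc and M-band, the fast alpha-actinin Actn3 was at 1252, 1333 and 1307 TPM and held 56.9 ± 1.39% of its family. Nonmuscle Actn1 and muscle Actn2 overlapped, at 374, 383 and 320.0 TPM and at 334, 378 and 320.2 TPM. Myozenin came almost entirely from Myoz2 (95.3 ± 0.724%), the slow and cardiac calcineurin-binding form. Muscle filamin Flnc (637, 716 and 801 TPM) and ubiquitous Flna (689, 753 and 659 TPM) overlapped. The thin filament ruler Neb, at 105, 140 and 222 TPM, and Nrap, which acts in myofibril assembly, at 139, 158 and 168 TPM, overlapped too. Lasp1, of the same family, was at 89.3 ± 5.36 TPM on the deposited length. On coding length Lasp1 led the family with 67.2%, and Neb held 17.5%. Myomesin came first from Myom2 (513 ± 28.3 TPM). Of the intermediate filament genes, Des led at 3933, 3973 and 3482 TPM, ahead of Vim (2284 ± 157 TPM) and Nes (1925 ± 38.0 TPM), both typical of young myotubes. On principal transcript length Vim, at 41.3%, was above Des, at 39.3%.

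The triad genes were expressed with 1 dominant paralog in most families. The voltage sensor Cacna1s was at 196, 229 and 261 TPM, and its cardiac paralog Cacna1c at 0.00397 ± 0.00346 TPM. The release channel Ryr1 was at 128, 155 and 233 TPM and held 95.2 ± 0.588%, with Ryr3 at 6.64, 8.57 and 9.98 TPM. Jph2, which tethers the membranes of the triad, held 84.9 ± 0.793% over Jph1. Slow and cardiac Casq2, a calcium store protein, was at 1387, 1559 and 1401 TPM against 494, 578 and 402 TPM for fast Casq1. Fast SERCA pump Atp2a1 was at 1215, 1363 and 1203 TPM and slow Atp2a2 at 727, 818 and 1027 TPM. Atp2a2 led on read counts with 54% and on coding length with 52.8%.

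In the acetylcholine receptor the fetal gamma subunit stood far above the adult epsilon subunit. Chrna1, the ligand-binding alpha subunit, was at 1056, 1131 and 1099 TPM, fetal gamma subunit Chrng at 555, 588 and 534 TPM, Chrnd at 400 ± 36.8 TPM and Chrnb1 at 324 ± 32.4 TPM. The adult epsilon subunit Chrne was at 10.4 ± 1.65 TPM, with all 3 cultures below every value of the other subunits. The dystrophin paralog Utrn, the form of immature membrane, was at 42.1, 56.0 and 65.9 TPM, and Dmd at 3.77 ± 1.14 TPM. Utrn therefore held 93.6 ± 0.542% of the pair. Integrin alpha 7, Itga7, the muscle laminin receptor, was at 810.0, 837 and 817 TPM and its partner Itgb1 at 1269 ± 40.7 TPM.

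Energy metabolism used muscle forms alongside general ones. Muscle enolase Eno3 was at 2545, 2568 and 2709 TPM and held 78.7 ± 3.17%, over Eno1 at 734, 699 and 537 TPM. Muscle phosphofructokinase Pfkm held 80.4 ± 5.05% and muscle creatine kinase Ckm 67.6 ± 2.87%, the latter at 553, 548 and 417 TPM. Aldolase and lactate dehydrogenase came from Aldoa (99.8 ± 0.0835%) and Ldha (97.7 ± 0.918%). Hexokinases Hk1 and Hk2 overlapped, at 106 ± 10.4 and 92.6 ± 7.60 TPM. Of the glucose transporters the basal form Slc2a1 held 86.7 ± 4.85%, at 158, 163 and 88.5 TPM. The insulin-responsive Slc2a4 was at 0.807, 0.677 and 1.17 TPM. In cytochrome oxidase the general isoforms Cox6a1 and Cox8a held 75.5 ± 4.19% and 75.3 ± 2.05%, and the heart and muscle forms Cox6a2 and Cox8b the remaining 24.5 ± 4.19% and 24.7 ± 2.05%.

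The transcription factors of differentiation were dominated by Myog at 1774, 1852 and 1649 TPM, or 84.8 ± 0.712% of the myogenic regulatory factors. In TPM, Myod1 was steady at 286, 282 and 283, and Myf5 and Myf6 were at 22.3 ± 1.96 and 8.32 ± 0.733. Among the MEF2 factors Mef2d led at 180 ± 25.2 TPM on the deposited length, and Mef2c on the other scales, with 44.8%, 45.9% and 39.9%. The fusion protein myomaker, Mymk, was at 1564, 1694 and 1686 TPM, and its partner myomerger, Mymx, at 396, 376 and 250 TPM. In TPM, culture 3 was therefore the lowest for Mymx and within the others' range for Mymk.

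Among cell cycle regulators, the inhibitor Cdkn1a led by a wide margin and proliferation genes were low but present. Cdkn1a was at 1386, 1474 and 1947 TPM, 91.1 ± 1.30% of its family, and Cdkn2a and Cdkn2b had no read in any culture. Ccnd3, the D cyclin that rises in differentiating muscle, held 85.6 ± 0.473%, with Ccnd1 at 34.5 ± 0.384 TPM. All 27 proliferation genes were expressed, at a median of 21.4 TPM, led by the ribonucleotide reductase subunit Rrm2 (225 ± 27.6 TPM).

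The SENP proteases, the family that the whole series is about, were expressed at modest levels. Among the 7 SENP proteases, which with the exception of the NEDD8-specific Senp8 remove or process SUMO, Senp3 was highest at 87.0, 93.4 and 93.6 TPM (41.7 ± 0.697%). Senp7, the gene targeted in the other 3 libraries, was the lowest on the deposited length, at 4.83, 5.50 and 6.27 TPM, from 552, 554 and 667 reads. By reads Senp8 was lower, with 264, 258 and 280. Heterochromatin protein Cbx5 was at 142 ± 18.2 TPM and Cbx1 at 82.2 ± 1.89 TPM, an order that turned on principal transcript length, where Cbx1 held 57.8%.

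The cultures differed by more than counting error at many genes. A chi-square test of the recovered reads against the library factors was run for the 13122 genes with a mean of at least 20 reads, and 6850 (52.2%) passed an adjusted p of 0.05 (Benjamini-Hochberg). The test allows for counting error alone. Reads without molecular identifiers are not independent molecules, so the true error can be larger than the test assumes. Each culture gave 1 library, so a difference between cultures and a difference between library preparations cannot be told apart. The share called was larger at higher levels, from 30.3% of genes at 1 to 10 TPM to 56.3% at 10 to 100 TPM, 88.0% at 100 to 1000 TPM and 100% of the 111 genes above. The spread itself was small. For genes with a mean count of at least 100, the median coefficient of variation (CV) beyond counting error was 0.063 and the 90th percentile 0.165. Only 25 of 10944 genes exceeded a CV of 0.5. Much of it rested on 1 culture: without culture 3 the median CV was 0.032 and 3032 genes passed. An exact sign-flip test over 3 pairs cannot go below 0.25, so no single gene was tested in that way.

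The 20 genes with the largest CV were chosen for their spread, so their values are a description. Culture 3 was the farthest from the others at all 20, highest at 11 and lowest at 9. The largest was Enpp2, which makes the lipid mediator lysophosphatidic acid, at 58.5, 69.0 and 413 normalised reads. Col23a1, a transmembrane collagen, was at 397, 348 and 2353. The secreted Wnt modulator Sfrp2 was at 407, 364 and 1380 and the growth factor Bmp4 at 484, 471 and 1209. For these 4 genes the ratio of culture 2 to culture 1 lay between 0.877 and 1.18, and culture 3 was 2.53 to 6.49 times their mean. The light chain Myl2 was at 135, 151 and 594 and the inward rectifier potassium channel Kcnj2 at 661, 700 and 1552. The others highest in culture 3 were Wisp2, a matrix-associated regulator, complement protease C1s1, the BMP antagonist Chrdl1, the purine-degrading Xdh and the Wnt receptor Ror1.

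Of the 9 genes lowest in culture 3, the receptor tyrosine kinase Ret had 170, 166 and 24.3 normalised reads. Ace, the angiotensin-converting enzyme, had 255, 240 and 48.6, and the peptide hormone gene Apln 215, 199 and 45.7. Car9, the cell surface carbonic anhydrase induced by low oxygen, had 1426, 1622 and 355. The mitochondrial adenylate kinase Ak4 had 799, 930 and 245. The rest were Sprr1a, the cholesterol side-chain cleavage enzyme Cyp11a1, the immediate early gene Arc and Prr9. Nos1, Mfap5 and Oasl2 followed just below the 20, at CVs of 0.509, 0.506 and 0.5, and Kcnj2 was the last inside with 0.518.

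**Figure D4:**
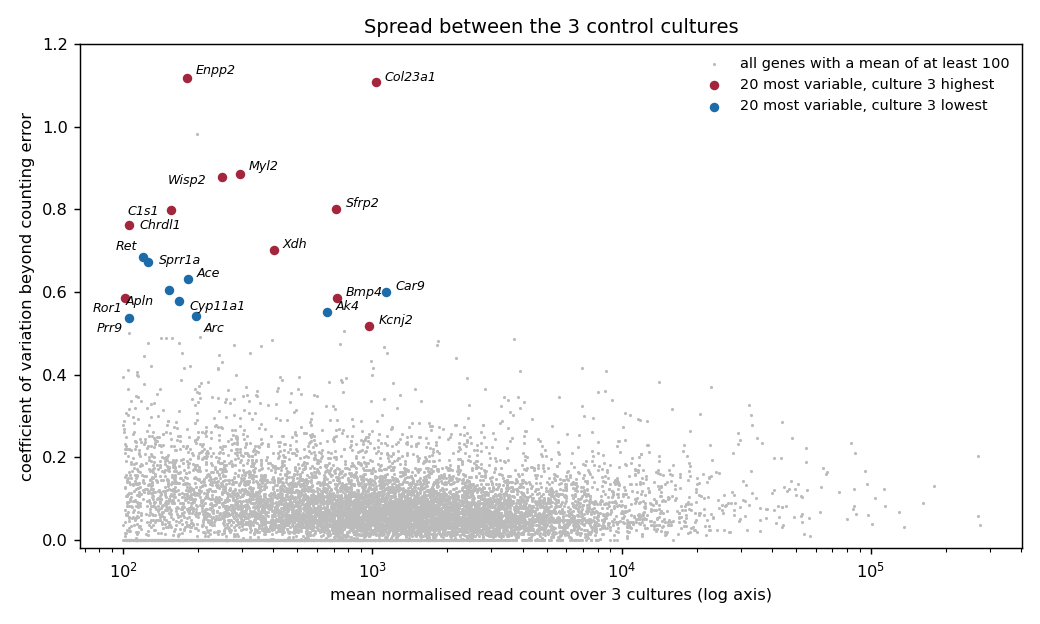
Coefficient of variation beyond counting error over the 3 control cultures (vertical axis) against mean normalised read count (horizontal log axis) for genes with a mean of at least 100 (grey), with the 20 most variable named genes coloured by the side on which culture 3 lay; predicted genes and pseudogenes stay grey. Enpp2 and Col23a1 lie above 1.1, and the median gene lies at 0.063.

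At the other end, the 10 steadiest genes with a mean of at least 1000 differed by less than counting error. Prrc1 was at 2182, 2181 and 2183 normalised reads, the splicing-associated isomerase Ppil2 at 1896, 1896 and 1899, and the purine synthesis enzyme Gart at 1875, 1877 and 1872. The others were the arginine methyltransferase Prmt7, Ncoa5, Uck2, Wdr82, Metap1, Trp53 and Vps51. They were chosen for this closeness. Gapdh, a common reference gene, was less even at 46952, 44272 and 31765 normalised reads.

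The genes of several groups moved together in culture 3. Of 20 hypoxia-inducible genes all 20 passed the chi-square test, against 52.2% of all tested genes and 88.0% of those at 100 to 1000 TPM. Culture 3 was the lowest for all 20, against 42.1% of tested genes, and the median log2 ratio of culture 3 to the mean of cultures 1 and 2 was −0.75, against −0.01 over all tested genes. Besides Car9, the mitophagy receptor Bnip3 was at 4730, 4953 and 2076 normalised reads, the glucose transporter Slc2a1 at 4581, 4585 and 2299, and the pyruvate dehydrogenase kinase Pdk1 at 4705, 5417 and 2943. The oxygen sensors Egln3 (7738, 8776 and 4689) and Egln1 (4094, 4238 and 2607) were lowest in culture 3 as well. Vegfa, the angiogenic factor, had a smaller difference at 7810, 7884 and 6062. In each of these genes cultures 1 and 2 both lay above culture 3.

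Glycolysis genes followed. Of 22 tested, 21 passed, against 52.2% of all tested genes and 88.0% of those at 100 to 1000 TPM. Culture 3 was lowest at 19, against 42.1% of tested genes, and the median log2 ratio was −0.56. Pfkl was at 11249, 10620 and 5603 normalised reads, Pgk1 at 19020, 18524 and 10084, Ldha at 39708, 37326 and 22653, and the lactate exporter Slc16a3 at 3267, 3160 and 1878. Muscle isoforms varied in this: Pgam2 had a ratio of −0.41, while Eno3 and Pfkm differed least among the genes that passed. Eno3 was at 36542, 35850 and 34918 and Pfkm at 21694, 23195 and 22087, ratios of −0.05 and −0.02. In TPM, culture 3 was the highest for both, at 2709 for Eno3 and 892 for Pfkm. Slc2a1 belongs to both lists.

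Promoters are shown for 2 genes of the hypoxia list, because the core motif of the hypoxia-inducible factors, ACGTG, can be looked for in them, and for the leading actin. Sequences are from RefSeq on build GRCm38.p6, 250 bases before to 50 bases after the start, searched on both strands. ACGTG occurred in 11 of the 17 hypoxia list promoters matched (64.7%), 9 of 20 glycolysis promoters (45%), 18 of 58 ribosomal protein promoters (31%) and 3 of 28 thick and thin filament promoters (10.7%), against 20.4% of all 20449 promoters and 26.3% of those of expressed genes. TATAAA, the TATA box, which can share at most 1 end letter with ACGTG, occurred in 11 of 28 thick and thin filament promoters (39.3%) and 6.97% of those of expressed genes. A match describes letters in a window, not a bound site. The hypoxia list holds genes listed as hypoxia-inducible, so a high share there could be foreseen and says nothing about these cultures. Whether the hypoxia-inducible factors differed in culture 3 was not tested. Car9 (chr4:43506776-43507075, plus strand) and Bnip3 (chr7:138909457-138909756, minus strand) had the largest spread of the hypoxia list, and Acta1 (chr8:123894726-123895025, minus strand) was the highest actin. Capitals mark ACGTG on either strand in the first pair, where CACGTG in Bnip3 holds a match on each strand, and TATAAA in the last. The Acta1 window also holds ACGTG, left in lower case.
Car9: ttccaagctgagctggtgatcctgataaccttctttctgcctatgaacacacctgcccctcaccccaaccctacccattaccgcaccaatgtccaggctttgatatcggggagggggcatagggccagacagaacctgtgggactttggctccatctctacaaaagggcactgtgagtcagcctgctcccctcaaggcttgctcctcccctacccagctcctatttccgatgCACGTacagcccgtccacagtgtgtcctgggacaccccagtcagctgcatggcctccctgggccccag
Bnip3: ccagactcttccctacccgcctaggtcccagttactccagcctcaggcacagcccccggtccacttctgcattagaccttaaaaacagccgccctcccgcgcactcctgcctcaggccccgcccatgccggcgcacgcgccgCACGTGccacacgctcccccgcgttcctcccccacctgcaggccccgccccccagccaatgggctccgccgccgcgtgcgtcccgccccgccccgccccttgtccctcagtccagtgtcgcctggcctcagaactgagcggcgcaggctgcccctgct
Acta1: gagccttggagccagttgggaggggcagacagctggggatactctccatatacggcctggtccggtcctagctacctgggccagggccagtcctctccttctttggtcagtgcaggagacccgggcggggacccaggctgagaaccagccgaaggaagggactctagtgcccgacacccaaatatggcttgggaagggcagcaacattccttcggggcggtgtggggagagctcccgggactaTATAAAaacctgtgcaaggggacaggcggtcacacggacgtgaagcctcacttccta

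Ribosomal protein genes were lower in culture 3 without exception, by differing amounts. All 79 passed the test, against 52.2% of all tested genes and 88.0% of those at 100 to 1000 TPM. Culture 3 was lowest for all 79, against 42.1% of tested genes. The latter share was 71.3% for protein-coding genes of 1000 to 2000 bases with a mean count of at least 100. The median length of the 79 was 1770 bases. Their log2 ratios lay between −0.53 and −0.21, with a median of −0.36. Rplp0 was at 35759, 31788 and 27345 normalised reads and Rpl8 at 27537, 24146 and 19759, so that culture 2 also lay below culture 1. Short genes in general were lower in culture 3: the median log2 ratio was −0.26 for genes under 1000 exonic bases, −0.17 from 1000 to 2000, −0.08 from 2000 to 4000, 0.01 from 4000 to 8000 and 0.12 above 8000. The ratio of culture 2 to culture 1 had the same trend, from −0.16 to 0.11. With the trend on length subtracted, all 79 ribosomal genes stayed below 0, at a median of −0.23, and the hypoxia list at −0.71. Nuclear genes of oxidative phosphorylation had a median of −0.21, and of −0.10 without the length trend. Culture 3 was lowest at 41 of 44, against 42.1% of tested genes and 71.3% of the genes of 1000 to 2000 bases. The median length of the 44 was 1950 bases. For mitochondrially encoded mRNAs the median was −0.07, and 0.11 without the trend.

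Of 27 proliferation genes 22 passed the test, against 52.2% of all tested genes and 56.3% of those at 10 to 100 TPM. Culture 3 was highest at 22 of the 27, against 37.6% of all tested genes. The median log2 ratio was 0.24, and 0.26 without the length trend. Mki67, a marker of cycling cells, was at 1479, 1652 and 2435 normalised reads and the topoisomerase Top2a at 2365, 2291 and 3203. The replication genes Pcna (1706, 1594 and 1548) and Mcm6 (1246, 1167 and 1250) had ratios of −0.09 and 0.05. The mitotic genes Ccnb2, Cdc20 and Plk1 had ratios of 0.38, 0.32 and 0.31. Sarcomere genes went both ways, with 30 of 31 passing, where 88.0% of all genes at 100 to 1000 TPM did. Culture 3 was highest at 9 and lowest at 20 of them, against 37.6% and 42.1% of all tested genes. The median was −0.16, or −0.06 without the length trend. Slow and cardiac Myh7 (6344, 6891 and 12707) was at the upper end after Myl2. Ckm had a ratio of −0.53 and Mylpf of −0.44.

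Matrix genes were divided as well, with 29 of 31 passing, again where 88.0% of genes at 100 to 1000 TPM did, and a median of −0.08, or −0.13 without the length trend. Col6a2 was at 5645, 4893 and 10208 normalised reads, Col6a1 at 8883, 8164 and 13284 and the proteoglycan Dcn at 812, 783 and 1378, all highest in culture 3. The collagen cross-linking enzymes Loxl2 (862, 1019 and 344) and Lox (25360, 25870 and 17893) and the fibrillar chain Col1a1 (53078, 49174 and 29692) were lowest there. Col3a1 differed little, at 92417, 87032 and 81453. Smooth muscle markers were lower in culture 3 at Cnn1 (264, 257 and 86.6) and Acta2 (74887, 65020 and 52572), while Myh11, the defining heavy chain of smooth muscle, stayed below 0.1 TPM in every culture. Of 20 cholesterol synthesis genes 10 passed, near the 52.2% of all tested genes, with a median of 0.01, and Hmgcs1 was at 9582, 9447 and 9568.

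**Figure D5:**
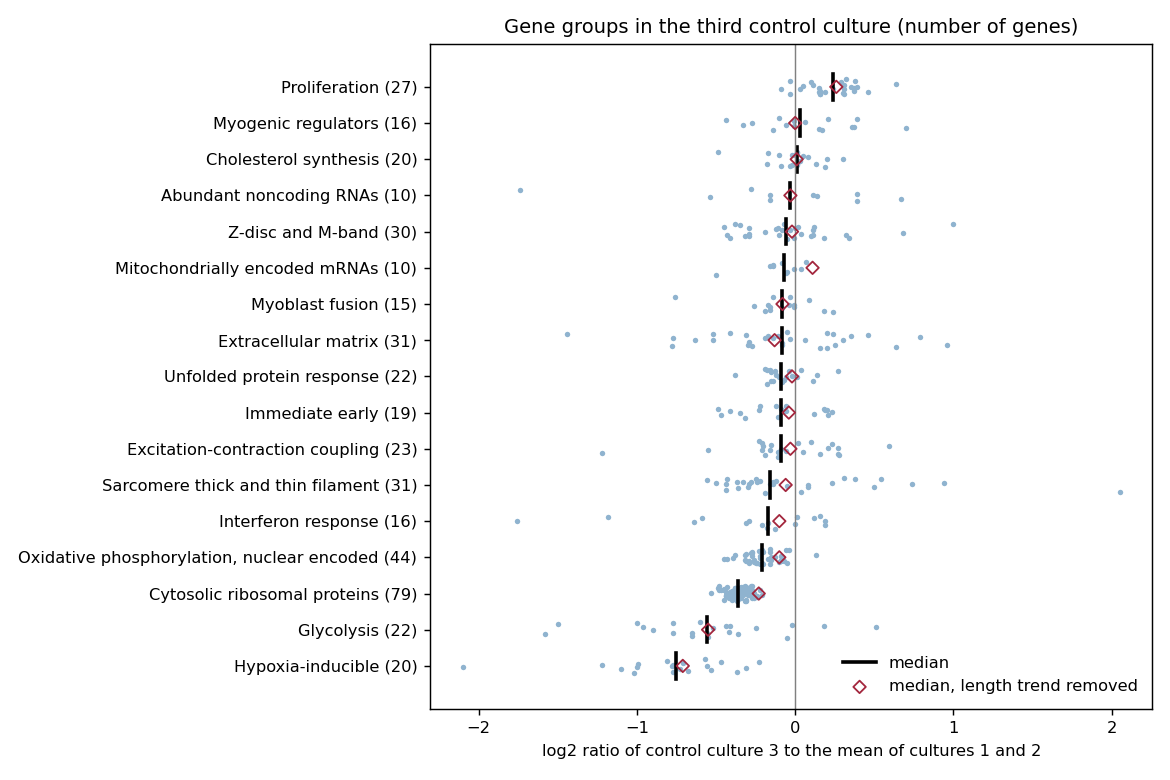
Log2 ratio of culture 3 to the mean of cultures 1 and 2 (horizontal axis) for each tested gene of 17 gene groups (points; number of genes in brackets), with the group median (black line) and the median after subtracting the trend on gene length (diamond). Hypoxia-inducible and glycolysis genes lie lowest at −0.75 and −0.56, ribosomal proteins form a tight cluster at −0.36, and proliferation genes lie highest at 0.24.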

How the data were processed

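The deposited table held 55401 genes and, per the file headers, 6 library columns and a gene length. Its values are a normalised signal: from the values, read counts that the authors divided by 1 factor per library. Tools named in the submitters' processing notes include featureCounts 1.6.4 for counting and STAR 2.6.1d for alignment, with bcl2fastq, DESeq2 and Trim Galore 0.6.4, and the build is GRCm38.p6. For the strand setting and the annotation release, the sources used here give nothing. Only the 3 control columns were used, and the 3 others were not.

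Every positive control value was a whole multiple of 1 step within 0.1 read (100% of values), so reads were recovered. Depths of 25223218 to 27763538 reads give a gene at 100 reads a counting error of about its square root. TPM used the deposited length. Gene types came from GENCODE M21, whose coordinates were the same for all 54349 identifiers shared.

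Genes with a mean of at least 20 reads entered the chi-square test (2 degrees of freedom), whose code was tested on simulated data. CVs have the counting variance subtracted. Log2 ratios used a pseudocount of 1. Alternatives, described below the report, used edgeR 4.0.16 (R 4.3.3). Python 3.11.15 was used with scipy 1.17.1.

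Genes named were the 30 highest by TPM and 20 by reads, the leading 2 of each family and members holding 10% or more, the 20 largest and 10 smallest CVs without predicted genes and pseudogenes, the 4 highest and 2 most variable of each list, all cell type markers, and the genes whose rank moved most. Most but not all of these are printed. Results of a few genes are not reported here. A few further list members are named that were chosen after their values were seen. The members and lists were chosen with earlier results of these data known.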

Additional observations from a re-analysis of the deposited data

How the results depend on the processing

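No paired analysis was possible because only 1 group was used and no test was made between groups. The 13307 expressed genes became 12082 to 14520 under other minimums, and the 84 families with a separate leading member 74 to 89. Genes reaching 50% of the pool went from 488 to 846 on reads without length. The share of the 10 highest genes, 11.3%, was 6.34% on reads without length, 8.35% without mitochondrial genes, 6.51% on coding length and 8.62% on principal transcript length; the last pair of scales was chosen after seeing the data, as were the removal of the length trend and other scalings of the group medians. Genes varying beyond counting error numbered 6850, 4362 at a threshold of 0.001, and 3032 to 6333 without 1 culture, the lowest without culture 3. The median CV of 0.063 was 0.093 by edgeR's tagwise estimate, 0.063 on library totals, 0.063 with TMM factors, 0.064 at a mean of at least 20, and 0.032 to 0.071 without 1 culture. Culture 3 was farthest for 47.6% of genes, for 47.2% with TMM, 47.6% with a pseudocount of 0.5 and 41.2% with no filter. Without culture 3, Flna led the filamins and Nrap the nebulin family; without culture 1, Tnni1 led troponin I. A coding length from reference proteins was not run. Depth limits genes under 20 reads, which were not tested.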

Other observations

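Very short genes made up more of the TPM scale than of the reads. The 277 genes under 200 exonic bases that were expressed held 1% of TPM and 0.0295% of reads. Gm10736, a processed pseudogene of 78 bases, ranked 39 by TPM from 1458, 1325 and 1092 reads in cultures 1, 2 and 3. The noncoding RNA Bc1, of 168 bases, ranked 52 from 2599, 2293 and 1631 reads. Gm23935, annotated as a miRNA gene of 57 bases, had 403, 244 and 182 reads and ranked 201. Of the 277 genes, 227 were annotated as small RNAs.

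Among stress proteins, small heat shock genes were abundant. Cryab, a lens and muscle chaperone that binds desmin, was at 1042, 1067 and 949 TPM, and Hspb1 at 827, 822 and 706 TPM. Ferritin came from Fth1 (1413, 1372 and 1353 TPM) and Ftl1 (1249, 1019 and 1028 TPM), with Fth1 above Ftl1 in each culture. Interferon response genes were low, with 14 of 26 expressed, and B2m, the light chain of class I antigen presentation, held most of their sum at 797, 787 and 710 TPM.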
